A study of Mus musculus with 12 samples.

Results

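The 10 genes described here make or use itaconate, nitric oxide and kynurenine, and their signals were followed across 12 microarrays of cultured mouse microglia. The members are Acod1, Nos2, Ass1, Slc7a2, Arg1, Arg2, Gch1, Ido1, Kmo and Kynu, and they were found as the probes whose transcript accession RefSeq assigns to 1 of these symbols. The rule gave 14 of the 39429 probes on the array, which is 10 of the 19802 genes that could be tested. Ass1, Gch1, Kmo and Kynu have 2 probes each and the other members have 1.

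The microglia, macrophages that live in brain tissue, were shaken off mixed glial cultures grown from the brains of newborn C57BL/6 mice. They were exposed for 16 h to culture supernatant of Th1 cells (Th1 group), to culture supernatant of Th17 cells (Th17 group) or to the T cell medium IMDM alone (untreated group). Th1 and Th17 cells are classes of CD4+ helper T cell, named for the cytokines they make, and the study asked what the factors they secrete do to microglia. Each group holds 4 arrays, numbered 12, 13, 14 and 16 after the independent experiments they came from, and arrays are named here by group and experiment number. As the study describes its Th1 supernatants, the T cells were activated through CD3 and CD28 in both the priming and the restimulation step, and the medium controls are T cell medium stored frozen and diluted before use. The culture of the Th17 cells is not described in the methods used here. A supernatant holds a mixture of factors, so no single cytokine is assigned to any difference below.

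All 11 microglia markers found on the array were above background on all 12 arrays. They moved with Th1 supernatant themselves, since 4 were called lower than in untreated microglia, among them Cx3cr1 by -6.31 ± 0.70 and Trem2 by -2.50 ± 0.22 on the log2 scale, and Aif1 and P2ry12 were called higher, by 1.18 ± 0.26 and 1.61 ± 0.22. Markers of other lineages were detected in part. Of the T cell list, Cd3d, Cd3g and Cd2 were not above background on any array while the other 5 of 8, Cd3e, Cd4, Cd5, Cd28 and Lck, were on all 12. Of the 10 astrocyte markers, Gja1 and Sox9 were above background on no array and Aldh1l1, Aqp4, Fabp7 and Aldoc on all 12, and of the 10 oligodendrocyte-lineage markers 8 were on all untreated arrays. The part of these markers' cells in the members' signals was not tested. Between 21486 and 25623 probes per array were above background. Signals below are probe intensities after quantile normalisation, scaled so that the 75th percentile of every array is 1500, with values under 15 set to 15. Signals of different probes cannot be ranked against each other.

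These genes sit on 3 short metabolic routes that macrophages switch on when they meet interferon and bacterial products. Acod1 diverts aconitate from the citrate cycle to make itaconate, an antibacterial metabolite that also inhibits succinate dehydrogenase. Nos2 turns arginine into nitric oxide and citrulline, with arginine brought in by Slc7a2, citrulline recycled through Ass1, the cofactor tetrahydrobiopterin begun by Gch1, and the same arginine drawn off by the arginases Arg1 and Arg2. Ido1 opens tryptophan to N-formylkynurenine, and Kmo and Kynu carry kynurenine toward 3-hydroxykynurenine and the anthranilates.

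RefSeq promoter windows, 250 bases before to 50 bases after an annotated transcript start, were held for 4 of the 10 members in the table used here, Acod1, Ass1, Gch1 and Kmo. The windows of Acod1 and Ass1 are shown because these 2 genes had the most similar array-to-array variation among the members, as described further on. Both are from build GRCm38.p6 and on the plus strand, at chr14:103046762-103047061 for Acod1 and chr2:31470020-31470319 for Ass1. A single capital marks the annotated first base of the transcript and the run of capitals marks a match to the letters TATAAA.
Acod1: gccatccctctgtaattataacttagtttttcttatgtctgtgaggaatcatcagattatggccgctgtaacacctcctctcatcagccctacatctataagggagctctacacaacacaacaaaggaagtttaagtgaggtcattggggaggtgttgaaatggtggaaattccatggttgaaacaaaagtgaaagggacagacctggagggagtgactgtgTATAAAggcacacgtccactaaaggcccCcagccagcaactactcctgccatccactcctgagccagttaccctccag
Ass1: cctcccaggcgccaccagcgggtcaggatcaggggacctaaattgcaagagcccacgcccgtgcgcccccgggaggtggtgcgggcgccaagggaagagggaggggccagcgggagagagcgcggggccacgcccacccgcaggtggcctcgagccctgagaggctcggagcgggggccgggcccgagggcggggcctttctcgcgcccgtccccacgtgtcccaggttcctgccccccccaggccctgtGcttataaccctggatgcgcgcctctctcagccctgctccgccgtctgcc
A search on both strands took 4 motifs, the interferon-gamma-activated site as TTC and GAA with 3 bases between them, the core of the interferon-stimulated response element as a pair of GAAA with 2 bases between them, a kappaB site as GGGA and TTCC with 2 bases between them, and the TATA box as TATAAA, the last added after the windows had been seen. The shares of all 32851 windows that hold them are 8.30%, 3.44%, 1.47% and 13.6%. Of the 4 member windows, TATAAA was found in that of Acod1, from position -28 to -23 with the first transcribed base as 1, and on the opposite strand in that of Gch1, from position -188 to -183. The matches do not overlap another motif, and the first 3 sets of letters were in none of the 4 windows. A match is a description of the letters and nothing more.

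Microglia given Th1 supernatant carried higher signals of 9 of the 10 members than untreated microglia, and Arg2 was the member that did not pass the test. A gene was called at an adjusted p under 0.01, from limma with Benjamini-Hochberg adjustment over all 19802 genes, and a difference of more than 2-fold. Over all genes, 7.49% were called higher and 7.88% lower in this comparison. No member was called lower. The 9 called members also had Th1 arrays that did not overlap the untreated arrays. How many of all genes separate in this way was not counted, so the lack of overlap is not shown to be particular to the members. By another measure, limma gave 10242 of 19802 genes an unadjusted p under 0.05. The median difference of the 10 members was 3.97 on the log2 scale (range 1.44 to 6.56), or 3.86 with Ido1 and Kynu at the bounds given below, beside a median of -0.06 over all genes. All 10 members passed the filter of at least 4 arrays above background. Ido1 and Kynu passed it through the Th1 arrays alone, so a gene of their kind had to differ to be tested. Arg1 and Slc7a2 were above background on 1 untreated and 1 Th17 array each, so they too needed Th1 arrays to pass. For these genes the call and the lack of overlap follow in part from the filter. Differences are given below as log2 values ± SE with 4 arrays a group. In bulk RNA, a change in the share of cells that express a gene cannot be told apart from a change in its RNA per cell.

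**Figure D1:**
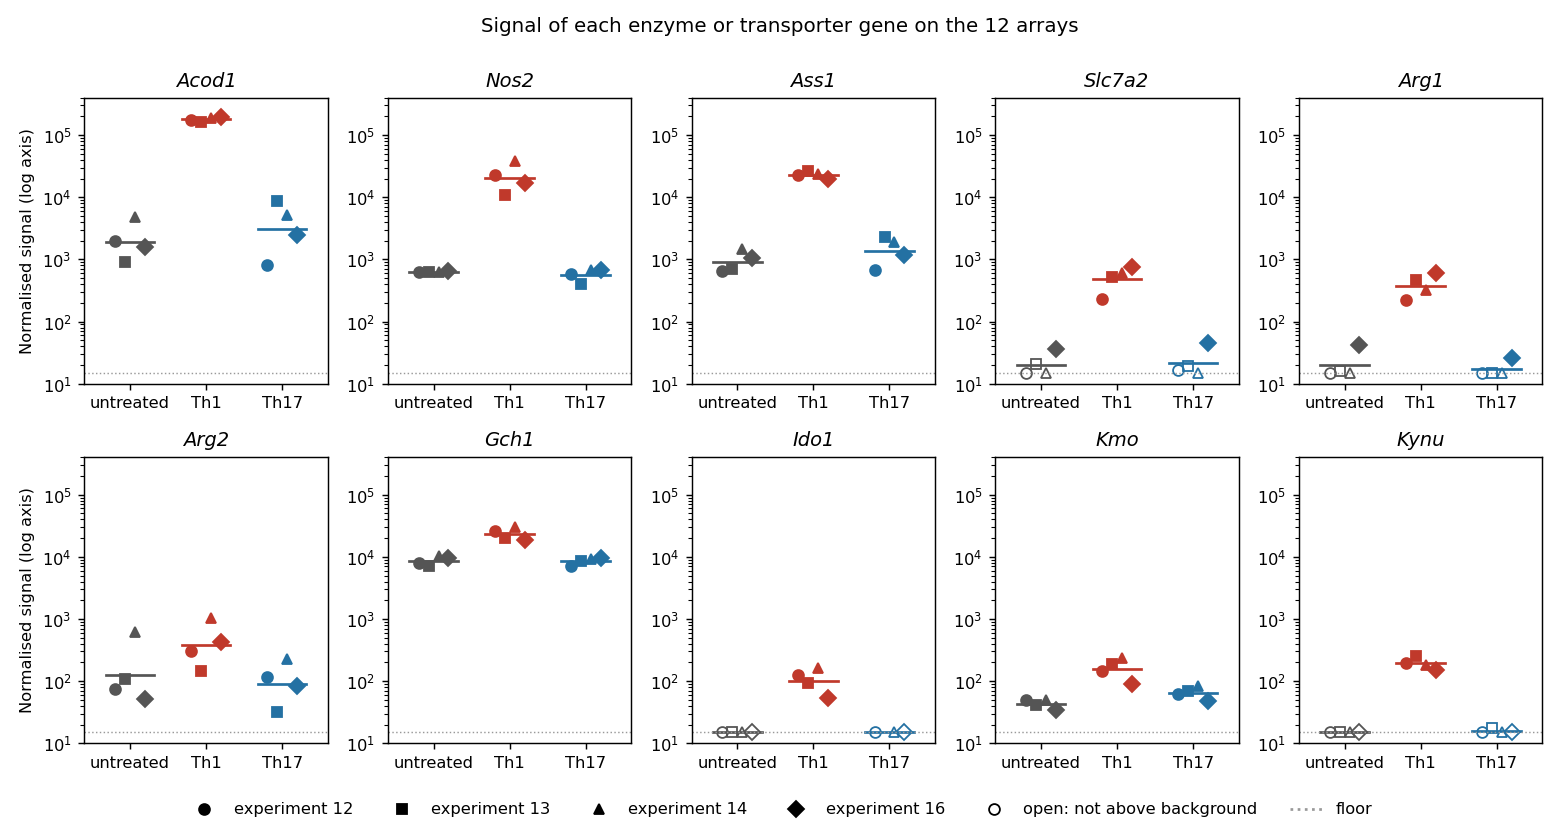
Normalised signal (log axis) of the 10 genes on every array, by group, with marker shapes for the experiments and a line at each group's geometric mean; open markers were not above background and the dotted line is the floor of 15. Th1 arrays lie above all other arrays for every gene but Arg2, and panels share 1 axis although signals of different probes cannot be compared.

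The itaconate enzyme Acod1 had the largest difference of the 10 members. Its signal was 1946, 922, 4765 and 1561 on the untreated arrays of experiments 12, 13, 14 and 16, and 178184, 165256, 186371 and 193670 on the Th1 arrays. On the Th17 arrays it was 821, 8727, 5123 and 2483. All Th1 arrays lay far above the rest, while Th17 arrays fell on either side of the untreated ones. The Th1 arrays also agreed closely with each other (SD 0.10 on the log2 scale), in contrast to the untreated (SD 0.99) and Th17 arrays (SD 1.48). Acod1 rose by 6.56 ± 0.65 in Th1 against untreated microglia, a 94.5-fold difference (limma, adjusted p = 1.20e-05). No spot on any array was marked as saturated.

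Nos2, the inducible nitric oxide synthase, was nearly level without Th1 supernatant. Its signal was 632, 620, 626 and 651 on the untreated arrays of experiments 12, 13, 14 and 16, and 576, 395, 674 and 666 on the Th17 arrays. On the Th1 arrays it was 23196, 10859, 38904 and 16893, so no Th1 array approached the other groups. Untreated arrays spread by an SD of only 0.03 on the log2 scale, and Th1 arrays by 0.78. Nos2 rose by 5.0 ± 0.32, or 31.9-fold, in Th1 against untreated microglia (limma, adjusted p = 4.49e-07).

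Of the members that supply arginine, Ass1 and Slc7a2 were both called higher. Ass1, argininosuccinate synthase, the first enzyme that rebuilds arginine from citrulline, gave 645, 699, 1489 and 1061 on the untreated arrays and 22477, 26367, 23440 and 19387 on the Th1 arrays. The Th1 arrays again stood clear of all others, and Ass1 rose by 4.63 ± 0.37 (limma, adjusted p = 2.54e-06). Its second probe gave 4.90 ± 0.43. Slc7a2, the cationic amino acid transporter CAT2, was above background on 1 of 4 untreated arrays (36.4, experiment 16) and gave 227, 524, 606 and 744 on the Th1 arrays. The fitted rise was 4.57 ± 0.44 (limma, adjusted p = 1.01e-05), a size that rests on 3 untreated arrays at or near the floor and became 3.27 with a floor of 50 and 1.77 with normexp background correction, still called. Not every gene of this supply differed, as Asl, which completes the recycling begun by Ass1, gave -0.02 ± 0.11 and the constitutive arginine transporter Slc7a1 gave -0.60 ± 0.32, neither called (limma, adjusted p = 0.909 and 0.159). These 2 genes of the arginine list were singled out after their values were seen.

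The arginases did not behave alike. Arg1, the cytosolic arginase often used as a sign of alternative macrophage activation, was above background on 1 of 4 untreated arrays (42.7, experiment 16) and on all Th1 arrays, at 221, 468, 327 and 610. The groups did not overlap and the fitted rise was 4.25 ± 0.39 (limma, adjusted p = 6.55e-06). Its size too is set by the floor, where 3 untreated arrays lie, and was 2.92 with a floor of 50 and 1.75 with normexp, still called. Arg2, the mitochondrial arginase, was detected on all 12 arrays. It gave 74.8, 110, 608 and 52.4 on the untreated arrays of experiments 12, 13, 14 and 16, 307, 148, 1050 and 420 on the Th1 arrays, and 118, 31.5, 227 and 82.3 on the Th17 arrays.

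Experiment 14 was the highest Arg2 array in each group, and untreated 14 lay above 3 of the 4 Th1 arrays. The difference was 1.57 ± 0.83 in Th1 against untreated microglia (limma, adjusted p = 0.150, 95% interval -0.26 to 3.39), which was not called. Within experiments it was 2.04, 0.43, 0.79 and 3.00 in experiments 12, 13, 14 and 16, higher in 4 of 4, and with the experiment as a block the adjusted p was 0.0170. Within slides, which hold 4 arrays each, it was 1.76, -0.62 and 3.00, so the direction turned on the second slide, where the untreated array was that of experiment 14. Some markers of other cells were also highest in experiment 14, and others were not. The astrocyte marker Gfap was 144 on untreated 14, 198 on Th1 14 and 165 on Th17 14, and at most 56 on the other arrays. On untreated 14 Slc1a3 was 121, Col1a1, a fibroblast marker, 194 and Mbp, a myelin gene, 26351, against at most 17, 48 and 11948 on the untreated and Th17 arrays of the other experiments. On Th1 12 and Th1 13 Slc1a3 was 51 and 43. The astrocyte marker Aldh1l1 (772) and the oligodendrocyte-lineage marker Mog (291) were instead lowest on untreated 14. Aldoc was 3122 on untreated 14 and 7912 on untreated 16. The summed lists followed this only in part, with 9016 for the astrocyte markers on untreated 14 (4991 to 12061 over the untreated, 4230.1 to 5825 over the Th1 and 4158 to 11941 over the Th17 arrays). The oligodendrocyte-lineage sum was 32761 on untreated 14 (16336 to 32761, 14439 to 21049 and 15387 to 20664 in the same order), but 6409 without Mbp, within the 6124 to 7079 of the untreated arrays. The part of such RNA in the Arg2 signal was not tested.

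Gch1, GTP cyclohydrolase, which makes the first committed step to tetrahydrobiopterin, had a high signal in every group. It was 8085, 7066, 10360.0 and 9533 on the untreated arrays, 26439, 20429, 29739 and 18780 on the Th1 arrays, and 7129, 8632, 9298 and 9577 on the Th17 arrays. The Th1 arrays did not overlap either other group. Gch1 rose by 1.44 ± 0.17, the smallest of the called differences (limma, adjusted p = 5.55e-05). Its second probe, A_52_P298002, differed by 0.85 ± 0.17 (limma, adjusted p = 0.00181), which is under 2-fold and so was not called, and the size for Gch1 depends on the probe.

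All 3 tryptophan enzymes were higher after Th1 supernatant, from very low signals. Ido1, indoleamine 2,3-dioxygenase, was not above background on any untreated or Th17 array and gave 126, 92.6, 164 and 54.1 on the Th1 arrays. It was at least 5.80-fold higher than in untreated microglia, measured against the lowest signal of any probe above background on each array (limma, adjusted p = 2.04e-05). Kynu, kynureninase, was likewise detected on no untreated or Th17 array and gave 199, 253, 180.1 and 153 on the Th1 arrays. It was at least 11.1-fold higher (limma, adjusted p = 6.92e-09), and its second probe at least 6.58-fold. The floor takes away the spread of the untreated Kynu arrays, and with no floor the adjusted p was 1.45e-05 (limma). The fitted Kynu difference of 3.69 became 1.95 with a floor of 50 and 1.14 with normexp background correction, still called.

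Kmo, kynurenine 3-monooxygenase, was dim but detected everywhere. It gave 49.8, 40.9, 50.1 and 34.5 on the untreated arrays and 147, 188, 238 and 89.2 on the Th1 arrays, without overlap, and rose by 1.85 ± 0.28 (limma, adjusted p = 0.000261). Its second probe, A_55_P2145606, was above background on 3 of 4 Th1 arrays and no untreated array and was not called (1.12 ± 0.71, limma, adjusted p = 0.221). These dim genes depend on how the low signals are treated. With normexp background correction, which adds an offset of 50, the differences of Ido1 and Kmo shrank to 0.76 and 0.70, under 2-fold, and with a floor of 50 in place of 15 Ido1 had an adjusted p of 0.0197 (limma).

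Within each of the 3 slides the 9 called members were higher on the Th1 than on the untreated arrays, by 0.98 (Gch1) to 7.06 (Acod1). Within each of the 4 experiments all 10 members were higher, by 0.43 (Arg2, experiment 13) to 7.49 (Acod1, experiment 13).

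**Figure D2:**
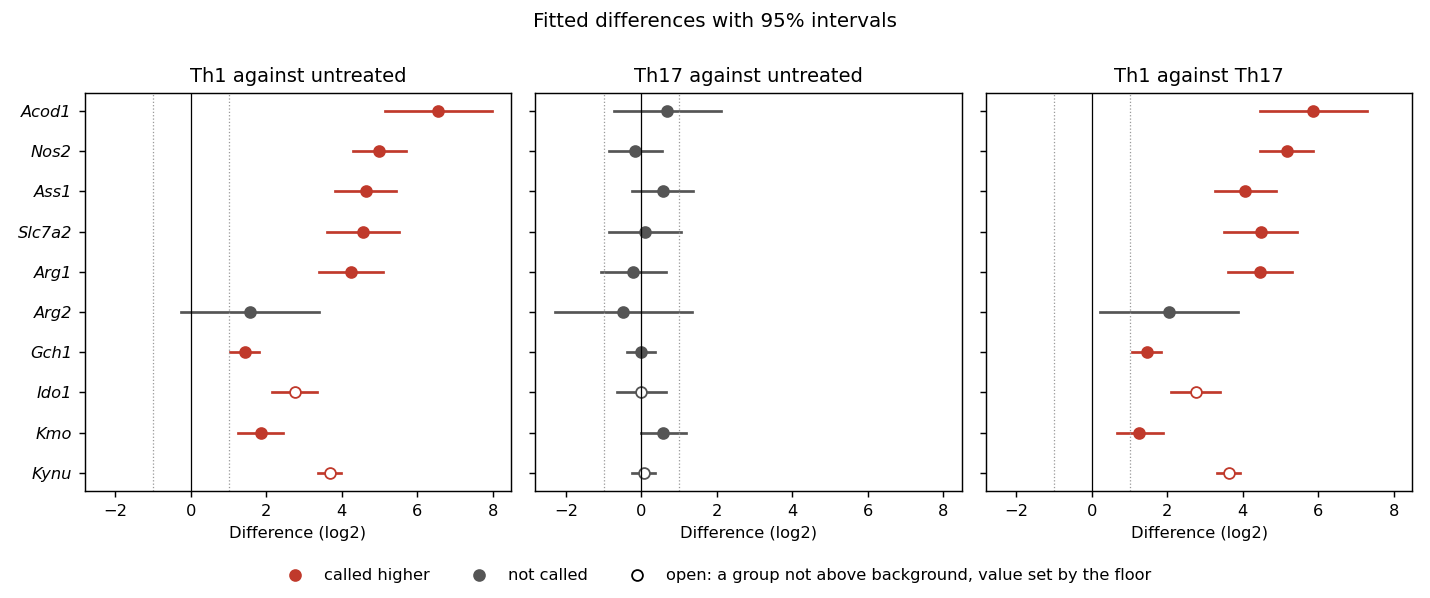
Fitted log2 differences of the 10 genes with 95% intervals in the 3 comparisons, red where called, with dotted lines at 2-fold and open markers where a group was not above background. The 9 genes other than Arg2 are called in both comparisons of Th1, none in Th17 against untreated, the interval of Arg2 is the widest, and the sizes for Arg1 and Slc7a2 also rest on arrays at or near the floor.

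Th17 supernatant left no member above the threshold. No gene of the array was called in Th17 against untreated microglia (0% higher and 0% lower), while limma gave 325 of 19802 genes and 0 of the 10 members an unadjusted p under 0.05. None of the 11 other ways of processing the data called a member either. The members' differences ran from -0.48 (Arg2) to 0.69 (Acod1), with a median of 0.03 beside 0.00 over all genes. For Gch1 the 95% interval was -0.39 to 0.37 and for Nos2 it was -0.86 to 0.54, so a difference of 2-fold lies outside the interval of both. The intervals of Acod1 (-0.73 to 2.12), Ass1 (-0.24 to 1.37), Kmo (-0.02 to 1.19), Arg2 (-2.30 to 1.35), Arg1 (-1.06 to 0.64) and Slc7a2 (-0.87 to 1.06) do reach 2-fold, and Ido1 and Kynu were below background in both groups.

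Acod1 varied most between experiments in this comparison. Its difference of Th17 from untreated was -1.25, 3.24, 0.10 and 0.67 in experiments 12, 13, 14 and 16. Ass1 gave 665, 2322, 1900.2 and 1170.3 on the Th17 arrays, higher than its own untreated partner in 4 of 4 experiments, by 0.04 to 1.73. Kmo gave 61.8, 69.6, 84.8 and 48.6 on the Th17 arrays, also higher than its partner in 4 of 4 experiments, by 0.31 to 0.77, although Th17 16 lay within the untreated range. The fitted values were 0.57 ± 0.37 for Ass1 and 0.58 ± 0.28 for Kmo, neither called (limma, adjusted p = 1, and 0.901 for both with the experiment as a block). Arg1 (26.1) and Slc7a2 (44.7) were above background on Th17 16 alone of the Th17 arrays, just as in the untreated group.

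The direct comparison of Th1 with Th17 supernatant called 9 of the 10 members higher, where 6.89% of all genes were called higher and 7.91% lower. This comparison and the first share the Th1 arrays. The median difference of the members was 3.84 (range 1.26 to 5.87), or 3.66 with Ido1 and Kynu at their bounds, beside -0.04 over all genes. Acod1 differed by 5.87 ± 0.65, Nos2 by 5.16 ± 0.32, Ass1 by 4.06 ± 0.37 and Gch1 by 1.45 ± 0.17, all with Th1 arrays above every Th17 array. Slc7a2 and Arg1 were also called without overlap, with fitted differences of 4.47 ± 0.44 and 4.46 ± 0.39 that rest on 3 Th17 arrays each at or near the floor. With a floor of 50 these became 3.27 and 2.92, and with normexp 1.76 and 1.79. Kynu was at least 9.60-fold higher after Th1 than after Th17 supernatant. Ido1 was at least 4.83-fold higher, over 3 Th17 arrays, because its spot on Th17 13 was marked as an outlier by the scanner software and left out.

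Kmo and Arg2 were the members closest to the threshold here. Kmo was higher by 1.26 ± 0.28 (limma, adjusted p = 0.00343) and lost its call when Th1 13, Th17 12 or Th17 16 was left out, with adjusted p-values of 0.0120, 0.0106 and 0.0114. Its second probe differed by only 0.32 ± 0.71, with the highest of its 12 signals (137) on Th17 16. Arg2 was higher by 2.04 ± 0.83 (limma, adjusted p = 0.0679), which was not called, with groups that overlap. Arg2 was nevertheless higher in 4 of 4 experiments by the similar steps of 1.38, 2.23, 2.21 and 2.35, and with the experiment as a block it passed (limma, adjusted p = 0.00502). Within each slide all members with a value were higher after Th1 supernatant, by 0.47 (Kmo) to 7.76 (Acod1). Ido1 had no value on the second slide.

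The members did not vary together from array to array, once the group means were taken out. Acod1 and Ass1 deviated from their group means in parallel (Pearson r = 0.89 over the 12 arrays), with Th17 13, Th17 14 and untreated 14 high and Th17 12 low for both. Arg1 and Slc7a2 did so as well (r = 0.88), with the array of experiment 16 the highest of its group for both genes in all 3 groups. In the untreated and Th17 groups these 2 genes were detected only in experiment 16, so most other points sit at or near the floor. Ido1 gave r = 0.72 with Kmo, 0.67 with Gch1 and 0.65 with Nos2, in effect from the 4 Th1 arrays, since Ido1 was at the floor elsewhere. Arrays share their slide, scaling and, across groups, their experiment, and these values are descriptions.

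**Figure D3:**
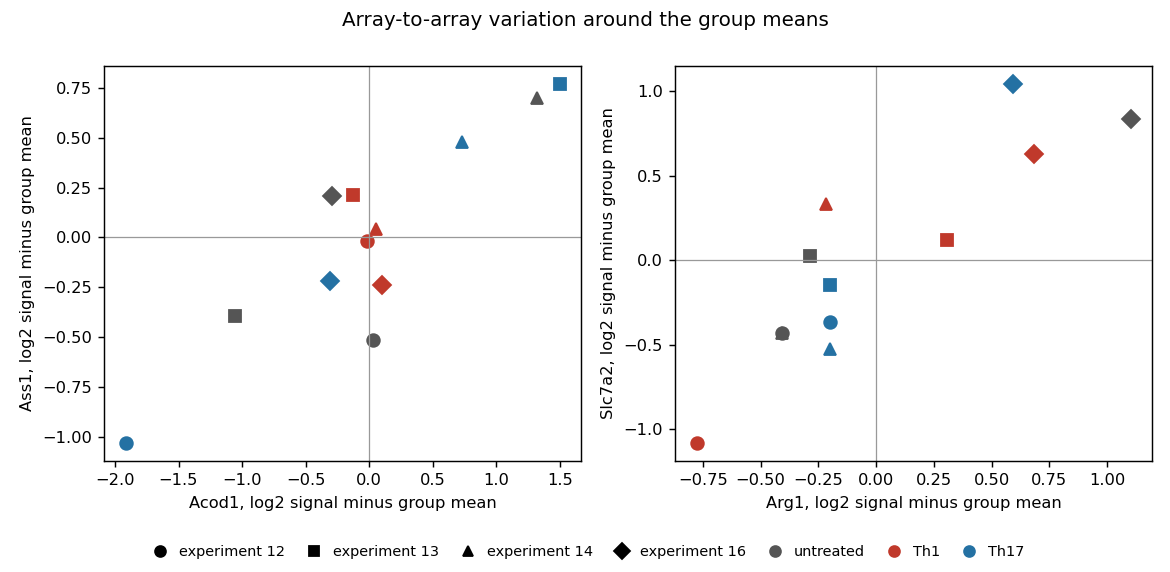
Log2 signal minus the group mean on each array, for Acod1 against Ass1 and for Arg1 against Slc7a2, with colours for the groups and shapes for the experiments. In both panels the points run from lower left to upper right (r = 0.89 and 0.88), and the arrays of experiment 16 are the 3 at the upper right for Arg1 and Slc7a2.

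Across all 12 arrays, the genes whose log2 signal most resembled that of Acod1 were Gbp2 (r = 0.995), Ifi47 (r = 0.994) and Ass1 (r = 0.991), the first pair being interferon-inducible GTPases. Those most like Nos2 were Htr7, a serotonin receptor (r = 0.994), Treml2 (r = 0.993) and Hspa5, the chaperone BiP of the endoplasmic reticulum (r = 0.992). Such values mostly restate that the Th1 group differs from both others.

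The neighbouring genes of these routes moved less uniformly than the members. Members and lists were chosen with earlier results of these data known. Ido1, Kynu, Arg1 and Slc7a2 also needed Th1 arrays to pass the filter, so this contrast follows in part from the choice of genes. Of 13 further citrate and itaconate genes 12 could be tested, and in Th1 against untreated microglia Clybl alone was called. Clybl, which breaks down citramalyl-CoA on the way from itaconate to pyruvate, gave 353 to 616 on the untreated and 1058 to 1333 on the Th1 arrays and rose by 1.31 ± 0.17. The list's median was 0.10. Slc13a3, a sodium-coupled dicarboxylate transporter able to carry itaconate, gave 6552 to 32776 on the untreated arrays, 580.0 to 5804 on the Th1 arrays and 9127 to 74691 on the Th17 arrays. It was lower by 3.61 ± 0.83 on the log2 scale in Th1 than in Th17 microglia (limma, adjusted p = 0.00464), whereas its difference of -3.04 ± 0.83 from untreated was not called (limma, adjusted p = 0.0117). Slc13a3 was lower than its untreated partner in 4 of 4 experiments, by -3.68 to -2.23, and with the experiment as a block this difference too was called (limma, adjusted p = 0.000130).

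Of 16 further arginine and polyamine genes 14 could be tested, with 2 higher, 1 lower and a median of -0.32. Azin2, which holds ornithine decarboxylase active, rose by 2.35 ± 0.24, from 46.8 to 95.2 on the untreated arrays to 334 to 489 on the Th1 arrays. The related gene Azin1 went the other way, by -0.89 ± 0.24, as did Sms, by -0.82 ± 0.15, while Slc7a7 gave 0.67 ± 0.14. Their adjusted p-values were under the threshold (limma, 0.00982, 0.00122 and 0.00278), but the differences were under 2-fold and not called. These genes were singled out after their values were seen. The creatine pathway split, since Gatm, which uses arginine to make guanidinoacetate, rose by 2.13 ± 0.28 and Gamt, which methylates guanidinoacetate to creatine, fell by 1.40 ± 0.11 on the log2 scale. Gatm gave 2734 to 4141 on the untreated and 12930 to 19894 on the Th1 arrays, and Gamt gave 6137 to 7626 and 2207 to 2905. Neither gene's groups overlapped.

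Of 9 further nitric oxide genes 6 could be tested, and 2 were lower with a list median of -0.88. Ddah2, which is thought to clear the synthase inhibitor asymmetric dimethylarginine, gave 5157 to 8033 on the untreated and 925 to 2600.3 on the Th1 arrays and fell by 2.30 ± 0.32 on the log2 scale. Nostrin, a trafficking partner of the endothelial synthase, fell by 1.41 ± 0.20. All 7 further tetrahydrobiopterin genes were tested and none was called in any comparison, with a median of -0.58. Spr, Pcbd2 and Qdpr, singled out after their values were seen, had adjusted p-values under the threshold in Th1 against untreated microglia but differences of -0.65 ± 0.12, -0.60 ± 0.11 and -0.58 ± 0.15, all under 2-fold. Gch1 thus rose while no other gene of its route was called higher.

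Of 17 further tryptophan and kynurenine genes 13 could be tested, with 5 higher, 1 lower and a median of 0.48. Ido2, the paralogue of Ido1, was above background on no untreated array and gave 207 to 484 on the Th1 arrays. It was at least 18.7-fold higher (limma on values with the floor, adjusted p = 5.34e-07). On the Th17 arrays Ido2 was above background only in experiment 12, at 28.8. Like Ido1 and Kynu, it passed the filter through its Th1 arrays and so had to differ to be tested. Wars, the tryptophanyl-tRNA synthetase, rose by 2.10 ± 0.14 from 13422 to 20685 on the untreated arrays to 63385 to 85165 on the Th1 arrays. Kyat3, a kynurenine aminotransferase that makes kynurenic acid, rose by 1.60 ± 0.27.

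The receptor that kynurenine and its products can bind, the aryl hydrocarbon receptor Ahr, rose by 2.02 ± 0.50 (limma, adjusted p = 0.00705). It gave 73.2, 82.5, 306 and 97.6 on the untreated arrays and 364, 439, 1031 and 293 on the Th1 arrays of experiments 12, 13, 14 and 16, so experiment 14 was the highest in both groups and untreated 14 lay above Th1 16. Its repressor and target Ahrr rose by 2.14 ± 0.39, from 299 to 850.1 on the untreated arrays to 1051 to 2594 on the Th1 arrays. Cyp1b1, another target on the list, gave 0.11 ± 0.54 and was not called (limma, adjusted p = 0.882). It was above background on 2 Th1 and 2 untreated arrays, and Cyp1a1 did not pass the filter. The activity of the receptor was not tested. Il4i1, a secreted amino acid oxidase that degrades phenylalanine and tryptophan, was the gene of this list called lower. It gave 836 to 2063 on the untreated and 187 to 393 on the Th1 arrays and fell by 2.50 ± 0.28 on the log2 scale.

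No gene of the 5 pathway lists was called in Th17 against untreated microglia, and the list medians there lay between -0.03 and 0.11. In Th1 against Th17 microglia the lists had 1, 2, 0, 0 and 4 genes higher and 1, 1, 2, 0 and 1 lower, in the order described. Ahr was not called against Th17 microglia but was higher in 4 of 4 experiments there, by 1.21 to 1.98, and passed with the experiment as a block (1.67, limma, adjusted p = 8.00e-05). The block also called Prkg1, a cGMP-dependent kinase, lower against untreated microglia (-1.13, limma, adjusted p = 0.00946) and Srm, spermidine synthase, lower against Th17 microglia (-1.02, limma, adjusted p = 7.68e-05).

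**Figure D4:**
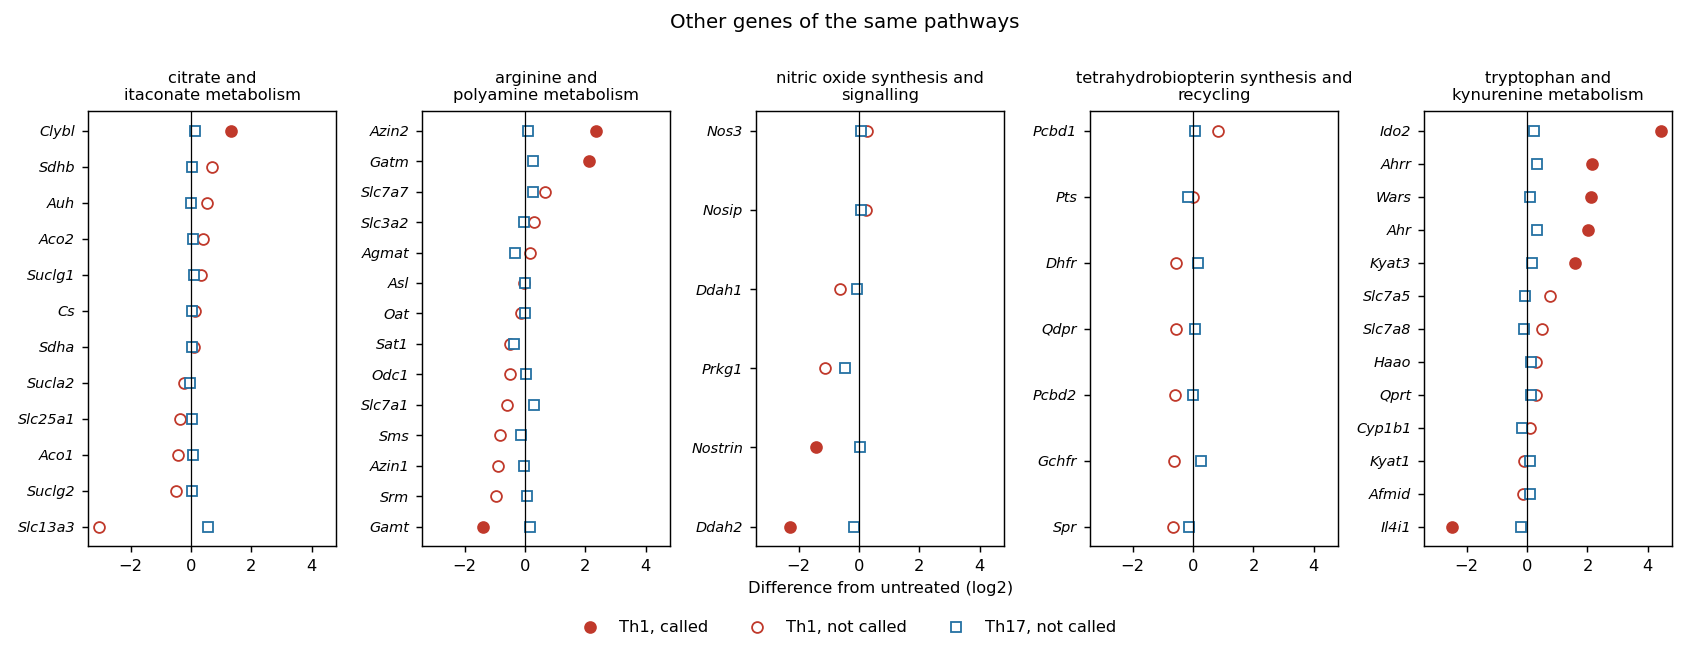
Log2 difference from untreated of the tested genes of the 5 pathway lists, with circles for Th1 and squares for Th17 and filled markers where called. Th1 circles spread in both directions, from Slc13a3 at -3.04, which was not called, to Ido2 at 4.44, where the untreated level is the floor, and no Th17 square is filled.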

How the data were processed

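Total RNA (500 ng per sample, per the labels) was labelled with Cy3 and hybridised to Agilent mouse arrays, 4 arrays a slide on 3 slides. Per the file headers, the authors read the images with Feature Extraction 10.7.3.1. What the authors deposited per array are linear intensity values of each spot after background subtraction, with flags per spot. The paper switched off multiplicative detrending when it extracted its astrocyte arrays, and it calls those and the microglia data analogously generated. The deposited value table holds log2 values centred per probe, with column medians of -0.226 to 0.180. The probe design names build mm9 and RefSeq's mouse annotation GRCm38.p6 was used for names alone.

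Spots with non-uniformity, population outlier or manual flags were left out (103 to 230 per array), and the spots of a probe were combined as a geometric mean. Arrays were quantile normalised, scaled to a 75th percentile of 1500 and given a floor of 15. Probes above background on at least 4 of 12 arrays were kept (24287), with the kept probe of highest mean signal for each gene. All 12 arrays entered 1 limma 3.58.1 fit (R 4.3.3) with a mean per group. Adjusted p-values are Benjamini-Hochberg over 19802 genes, called under 0.01 and over 2-fold. For a bound ("at least"), the dim group was set at the lowest signal above background on each of its arrays, or at its own signal where higher. That signal is not a strict limit of detection, so the bounds are approximate. On untreated 13 it was 20.0, while Slc7a2 at 20.7 was not above background there. A p-value beside a bound is that of the fit with the floor. The fit was tested on simulated data.

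Experiment numbers in the titles were taken to pair arrays, since the study describes 4 independent experiments. Deviations from group means of same-numbered arrays correlated by 0.24 to 0.63, and those of differently numbered arrays by -0.42 to 0.12. All arrays of experiment 12 shared a slide, as did those of experiment 16, so experiment and slide are not fully separated in these values. The number of arrays limits precision. In the main fit, p-values rest on the spread of arrays around their group means, pooled over all groups and moderated across genes. Members, marker lists and pathway lists were chosen with earlier results of these data known. Named beside the members are pathway genes called in any comparison and the 3 genes most correlated with Acod1 and with Nos2. Some uncalled pathway genes are named as well, chosen after their values were seen. Alternatives covered scaling, the value table, background correction, floor, filter, probe choice, blocks for experiment and slide, and leaving out arrays. The normexp alternative used median spot signals, since mean spot signals were not among the values available per array.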

Additional observations from a re-analysis of the deposited data

Results flagged for a closer look

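In groups of 4 arrays, 26 groups of members with a detected array were searched for a single array far from the other 3, where chance marks about 1 in 20 groups. Arg1 stood apart in 2 of them, a number near that rate. On untreated 16 its signal was 42.7, while the other untreated arrays gave at most 16.3 and were not above background. On Th17 16 it was 26.1, while the other Th17 arrays were at the floor of 15. Both arrays lie on the third slide and come from the same experiment, and experiment 16 also had the highest Arg1 signal of the Th1 arrays, at 610. The distance from the others depends on the floor, because the true signals under it have no order. Where the other 3 arrays are set to the floor, any array above it is marked. The rate of 1 in 20 therefore does not hold for these groups.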

How the results depend on the processing

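In the 11 alternatives other than leaving out an array, the number of members called in Th1 against untreated microglia was 9 with 75th percentile scaling alone, the deposited value table, no floor, no filter, slide as a block and only the 8 arrays compared. It was 8 with a floor of 50, 7 with normexp and 7 where every kept probe of a gene had to pass. Needing 8 of 12 arrays above background left 5 members called in Th1 against untreated and 5 in Th1 against Th17 microglia, because Arg1, Slc7a2, Ido1 and Kynu were no longer among the 6 members tested. With the replicate block the counts were 9 (Th1 against untreated), 0 (Th17 against untreated) and 10 (Th1 against Th17), where Arg2 was added, and the block changed no other call of a member. Among the pathway genes it added Slc13a3 and Prkg1 in the first comparison and Ahr and Srm in the last, and removed none. Leaving out 1 array at a time gave 9 to 9, 0 to 0 and 8 to 9 members in the same order, with Kmo the member lost. In Th1 against Th17 microglia, Ido1 missed the threshold with the value table (limma, adjusted p = 0.0120) and with a floor of 50 (0.0277), Kmo without a filter (0.0113) and with only the 8 arrays compared (0.0106), and both fell under 2-fold with normexp. No called difference changed sign. Dim signals limit Ido1, Kynu, Kmo, Arg1 and Slc7a2.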
